A study of Mus musculus with 34 samples.

Results

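The transcripts described here encode 10 parts of the MHC class I pathway: the light chain B2m, the classical (class Ia) heavy chains H2-K1 and H2-D1, the class Ib heavy chains H2-T22, H2-T23 and H2-Q4, the peptide editors Tapbp and Tapbpl, and the proteasome activator subunits Psme1 and Psme2. They were chosen by name, as genes of class I assembly and antigen loading, with earlier results of these data known. All 10 had a row among the 14107 genes of the count table. RNA sequencing was performed on 34 libraries of the mouse colorectal cancer lines NaJa-D, -F and -G, exposed to 0.5 µM encorafenib, an inhibitor of mutant BRAF, or to the solvent DMSO, for 1 or 5 days. The 12 groups of line, treatment and day held 3 libraries each, except NaJa-F with encorafenib at day 5 and NaJa-G with DMSO at day 5, which held 2. All lines were of strain C57BL/6N and carried VillinCreERT2, BrafV600E/+, Trp53R172H and APCdel, DMSO controls included. Encorafenib or DMSO was given with new medium at day 0, and again at days 2 and 4 in the 5-day cultures.

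Each line was 1 isolate, grown from the peritoneal lavage of 1 recipient mouse of colon organoids from a single donor, so a difference between lines is a difference between single isolates. Recombination was driven by a tamoxifen-dependent Cre under the Villin promoter, which acts in intestinal epithelium, and was induced in the organoids before transplantation. Host cells were lost during passage, per the study's methods. The labels do not say whether libraries of a group came from separate cultures, so p-values measure the spread between these libraries, which may be technical.

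MHC class I molecules show peptides from inside the cell to CD8+ T cells. The peptides are cut by the proteasome, moved into the endoplasmic reticulum by the TAP transporter, trimmed there and loaded onto a heavy chain paired with β2-microglobulin, with tapasin and its relative TAPBPR exchanging weak for strong peptides. Loss of class I surface display is a known route of immune escape in colorectal cancer, and interferons, NF-κB and NLRC5 are known inducers of these genes.

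B2m, the light chain of every class I molecule, lies at chr2:122147686-122153083 on the plus strand of GRCm38. 6 of the members lie within the MHC region of chromosome 17: H2-K1 at chr17:33996017-34000347 (minus strand), Tapbp at chr17:33915899-33929292 (plus), H2-D1 at chr17:35262730-35267499 (plus), H2-Q4 at chr17:35379617-35385290 (plus), H2-T23 at chr17:36029773-36032855 (minus) and H2-T22 at chr17:36037128-36042747 (minus). Tapbpl lies at chr6:125223933-125231860 on the minus strand. Psme1 at chr14:55578123-55581529 (plus) and Psme2 at chr14:55587441-55591113 (minus) are neighbours. All 10 are protein-coding genes in GENCODE M21.

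The bases just before the annotated start of 4 members are shown. B2m was taken for its narrower range across groups (3.30-fold), and H2-K1 and H2-Q4 because theirs were the widest of the members. H2-T22 was taken as the heavy chain that was lower in NaJa-D than in the other lines in DMSO. They are RefSeq sequence of GRCm38.p6, written 5′ to 3′ on the strand of the gene: B2m at chr2:122147467-122147685 (plus), H2-K1 at chr17:34000348-34000567 (minus), H2-T22 at chr17:36042748-36042962 (minus) and H2-Q4 at chr17:35379397-35379616 (plus). Capitals mark, on either strand, the core GAAANNGAAA of the interferon-stimulated response element (ISRE), the Y box CCAAT, the cyclic AMP response element core TGACG of the X2 box, and the NF-κB site.
B2m: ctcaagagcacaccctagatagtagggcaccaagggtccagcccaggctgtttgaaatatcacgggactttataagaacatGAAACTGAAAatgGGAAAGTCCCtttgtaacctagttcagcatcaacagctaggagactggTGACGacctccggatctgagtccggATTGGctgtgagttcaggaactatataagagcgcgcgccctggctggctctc
H2-K1: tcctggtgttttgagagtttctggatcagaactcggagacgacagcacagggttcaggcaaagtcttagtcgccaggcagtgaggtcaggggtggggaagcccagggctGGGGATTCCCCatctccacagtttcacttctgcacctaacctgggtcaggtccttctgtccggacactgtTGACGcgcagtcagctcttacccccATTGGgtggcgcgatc
H2-T22: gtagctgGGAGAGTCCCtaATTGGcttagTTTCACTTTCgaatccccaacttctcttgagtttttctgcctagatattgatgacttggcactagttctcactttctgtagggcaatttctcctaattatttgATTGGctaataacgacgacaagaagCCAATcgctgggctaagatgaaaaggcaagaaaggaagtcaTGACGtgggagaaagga
H2-Q4: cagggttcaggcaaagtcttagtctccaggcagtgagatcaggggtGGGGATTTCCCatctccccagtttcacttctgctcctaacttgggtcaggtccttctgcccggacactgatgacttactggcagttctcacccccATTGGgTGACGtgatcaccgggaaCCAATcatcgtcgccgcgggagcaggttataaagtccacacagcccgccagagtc

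In the 250 bases before the start, B2m held 1 ISRE core, 1 NF-κB site, 1 TGACG and 1 CCAAT, in that order toward the gene, with the ISRE core at 139 to 130 bases and the NF-κB site at 126 to 117 bases before the start. H2-K1 held an NF-κB site, TGACG and CCAAT but no GAAANNGAAA. H2-Q4 held the same 3 kinds, with CCAAT at 2 places, and shared a run of 24 bases with H2-K1. H2-T22 held all 4 kinds, with CCAAT at 3 places. Of the members whose sequence is not printed, H2-D1 held an NF-κB site, TGACG and 2 CCAAT, and shared 47 bases in a row with H2-K1. H2-T23 held an ISRE core and CCAAT. Tapbp held CCAAT at 2 places, Psme2 held TGACG and Psme1 held none of the 4. Over 27025 mouse promoter windows of the same length, 3.04% held GAAANNGAAA, 34.5% CCAAT, 17.9% TGACG and 7.01% the NF-κB site. TGACG lay farther from the start than CCAAT in B2m, H2-K1 and H2-D1. It lay between the 2 CCAAT places in H2-Q4, and nearer the start than all 3 in H2-T22. Whether a marked TGACG is part of an X2 box was not tested. A match is a description of the letters, and its absence in this window says nothing about a factor. The promoter of Tapbpl was not used here.

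Library totals ran from 46007050 to 80121299 counts. Levels are given as CPM, counts relative to the library total scaled by the trimmed mean of M-values (TMM), and differences as log2 fold changes (log2FC) ± standard error from limma-voom, with Benjamini-Hochberg adjusted p over all 14107 genes and a threshold of 0.01. Values for the 3 lines always follow the order D, F, G. In bulk libraries, fewer cells expressing a gene and less RNA of it per cell cannot be told apart. The library titled as NaJa-D DMSO day 1 replicate 3 names NaJa-G in its cell line field, and was kept under its title. Its H2-K1 level was 352 CPM, against 296 and 367 CPM in the other NaJa-D libraries of that group and 41.5 to 42.0 CPM in NaJa-G. Results that change without it are given with both values.

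Several members share sequence with other genes, and how the counting treated such reads is not given in the sources used here. Of 50-base stretches of the transcript, 53.5% in H2-T22 also occurred in another gene, mainly H2-T10 and an antisense transcript. The share was 36.4% in H2-Q4, 28.3% in Psme2 (all with its copy Psme2b, whose row reached at most 7.01 CPM), 23.2% in Tapbp, 14.5% in H2-T23, 12.8% in H2-D1, 9.63% in H2-K1, 5.47% in Psme1, 3.69% in Tapbpl and 0% in B2m. B2m lies wholly within the region of Patl2 and Tapbpl wholly within that of Vamp1, both on the other strand, and Tapbp overlaps Zbtb22 on the same strand. H2-T22, H2-T23, H2-Q4 and Tapbp also have antisense partners. Of the Tapbp stretches, 20.3% also occurred in its antisense partner Gm19412 and 1.36% in Zbtb22. Values of these genes are uncertain to that extent.

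In the DMSO cultures, the lines differed most in the heavy chains: NaJa-D was the highest and NaJa-G the lowest for H2-K1 and H2-D1, while B2m, the chain that pairs with them, was slightly higher in NaJa-G than in the other lines. The line differences below are over the mean of both days. In NaJa-G against NaJa-D, all 10 members passed the test, 4 higher and 6 lower, where 67.4% of all genes passed. In NaJa-F against NaJa-D, 8 passed, 3 higher and 5 lower, with a background of 61.6%. In NaJa-G against NaJa-F, 8 passed, 2 higher and 6 lower, with a background of 54.4%. A large share of all genes differed between lines, so the counts of members are to be read against that share, and the sizes tell more.

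B2m measured 68.4, 82.0 and 81.2 CPM in the 3 NaJa-D libraries, 83.6, 84.4 and 84.3 CPM in NaJa-F and 102, 97.3 and 93.1 CPM in NaJa-G with DMSO at day 1. At day 5 it measured 95.6, 117 and 103 CPM in NaJa-D, 92.3, 92.4 and 92.1 CPM in NaJa-F and 132 and 148 CPM in NaJa-G. NaJa-G was thus the highest on both days, and NaJa-D lay below NaJa-F at day 1 and above it at day 5, without overlap. B2m was higher in NaJa-G, both against NaJa-D (log2FC 0.38 ± 0.053, limma-voom adjusted p = 2.2e-07) and against NaJa-F (0.41 ± 0.052, adjusted p = 9.8e-08). At day 1 alone the difference from NaJa-F was 0.21 and missed the threshold (limma-voom adjusted p = 0.012). Between NaJa-F and NaJa-D the log2FC was -0.025 ± 0.049 (adjusted p = 0.67), which did not pass the test, and its sign changed with the scaling: 0.10 with scaling by library size only.

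H2-K1, one of the classical heavy chains that present peptides to CD8+ T cells, measured 296, 367 and 352 CPM in NaJa-D, 250.2, 259.7 and 264 CPM in NaJa-F and 41.5, 41.8 and 42.0 CPM in NaJa-G with DMSO at day 1. At day 5 it measured 427, 454 and 378 CPM in NaJa-D, 226, 224 and 225 CPM in NaJa-F and 32.3 and 37.9 CPM in NaJa-G. The lines did not overlap on either day, in the order NaJa-D, NaJa-F, NaJa-G. Against NaJa-D the log2FC was -0.64 ± 0.054 for NaJa-F (limma-voom adjusted p = 2.1e-11) and -3.29 ± 0.058 for NaJa-G (adjusted p = 2.2e-27).

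H2-D1, the other classical heavy chain, measured 446, 559 and 515 CPM in NaJa-D, 286, 296 and 269.7 CPM in NaJa-F and 127, 109 and 110.4 CPM in NaJa-G with DMSO at day 1. The order of the lines was that of H2-K1, with no overlap on either day, and the gap was smaller: -0.93 ± 0.064 in NaJa-F (limma-voom adjusted p = 1.9e-13) and -2.09 ± 0.066 for NaJa-G (adjusted p = 1.6e-21), both against NaJa-D as log2FC.

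The class Ib heavy chains did not share that order. H2-Q4, a chain encoded in the Q region, measured 1.63, 1.99 and 1.72 CPM in NaJa-D, 2.40, 2.18 and 2.90 CPM in NaJa-F and 0.301, 0.402 and 0.283 CPM in NaJa-G with DMSO at day 1. NaJa-G was below NaJa-D (log2FC -3.00 ± 0.21, limma-voom adjusted p = 2.6e-13) and NaJa-F (-3.12 ± 0.21, adjusted p = 9.7e-14), resting on 17 to 30 counts in each NaJa-G library of day 1. NaJa-F and NaJa-D did not pass the test (0.13 ± 0.12, adjusted p = 0.33), and at day 5 alone the sign turned, with -0.23.

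H2-T22, a nonclassical heavy chain recognised by some γδ T cells, was the only heavy chain with a lower level in NaJa-D than in both other lines. It measured 9.63, 9.50 and 8.44 CPM in NaJa-D, 23.7, 23.1 and 21.8 CPM in NaJa-F and 18.1, 14.9 and 15.3 CPM in NaJa-G with DMSO at day 1, with no overlap between lines. The log2FC against NaJa-D was 1.33 ± 0.067 in NaJa-F (limma-voom adjusted p = 2.1e-16) and 0.90 ± 0.071 for NaJa-G (adjusted p = 3.2e-12).

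H2-T23, which encodes Qa-1, the ligand of the inhibitory NKG2A receptor of NK and T cells, measured 14.1, 16.9 and 14.9 CPM in NaJa-D, 7.99, 8.15 and 7.81 CPM in NaJa-F and 10.2, 8.38 and 8.68 CPM in NaJa-G with DMSO at day 1. NaJa-D stood above both other lines without overlap (log2FC -1.16 ± 0.071 in NaJa-F, limma-voom adjusted p = 1.9e-14; -0.74 ± 0.071 in NaJa-G, adjusted p = 1.8e-10). H2-T23 was higher in NaJa-G than in NaJa-F over both days (0.42 ± 0.076, adjusted p = 2.3e-05), but not at day 1 alone (0.18 by limma-voom, adjusted p = 0.16).

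Among the editors, Tapbpl, which encodes the tapasin-related TAPBPR, fell in steps from 20.5, 23.6 and 23.2 CPM in NaJa-D to 10.8, 11.9 and 11.4 CPM in NaJa-F and 5.51, 6.01 and 5.66 CPM in NaJa-G with DMSO at day 1. No lines overlapped, and the log2FC was -0.85 ± 0.064 in NaJa-F (limma-voom adjusted p = 1.5e-12) and -1.81 ± 0.079 for NaJa-G (adjusted p = 3.6e-18) against NaJa-D. Tapbp, which encodes tapasin, differed less: it was -0.36 ± 0.059 in NaJa-F (adjusted p = 4.1e-06) and -0.67 ± 0.063 for NaJa-G (adjusted p = 1.2e-10). The NaJa-F difference was -0.11 and missed the threshold at day 1 alone (limma-voom adjusted p = 0.26). Tapbp was also lower in NaJa-G than in NaJa-F over both days (-0.31 ± 0.063, adjusted p = 9.3e-05), with a value of 0.018 at day 5 alone.

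The activator subunits Psme1 and Psme2, which form the PA28 cap that opens the proteasome, were lowest in NaJa-D. Psme2 measured 10.3, 9.97 and 9.65 CPM in NaJa-D, 18.1, 16.4 and 16.3 CPM in NaJa-F and 18.2, 16.5 and 16.4 CPM in NaJa-G with DMSO at day 1, so that NaJa-F and NaJa-G overlapped and NaJa-D stood apart. The log2FC against NaJa-D was 0.67 ± 0.064 in NaJa-F (limma-voom adjusted p = 2.4e-10) and 0.69 ± 0.066 for NaJa-G (adjusted p = 1.8e-10). For Psme1 it was 0.45 ± 0.052 and 0.35 ± 0.055 (adjusted p = 1.2e-08 and 1.7e-06), and at day 5 alone the NaJa-G value was 0.20 and missed the threshold (limma-voom adjusted p = 0.027). Neither subunit passed the test between NaJa-G and NaJa-F (-0.098 ± 0.05 for Psme1 and 0.024 ± 0.059 for Psme2, adjusted p = 0.09 and 0.75).

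**Figure D1:**
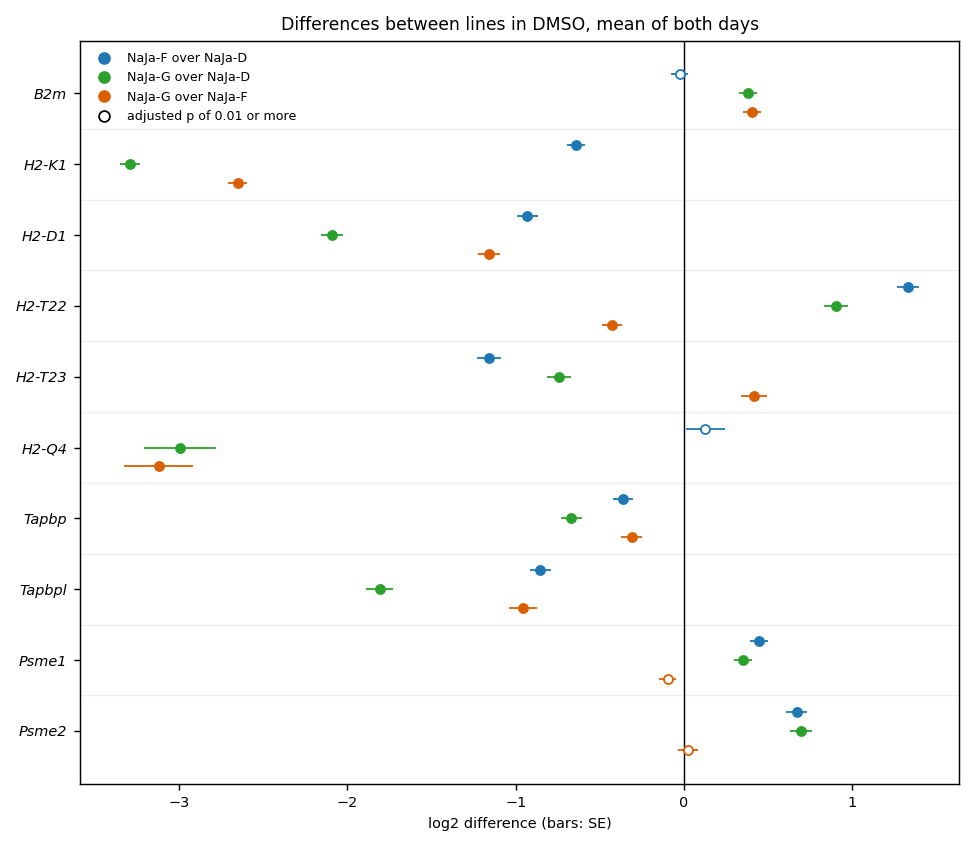
log2 fold changes between the lines in DMSO (mean of both days), one point per gene and pair of lines with bars of 1 standard error. H2-K1 and H2-Q4 in NaJa-G lie near -3 on the log2 scale against NaJa-D, while B2m, Psme1 and Psme2 lie above 0 in that pair.

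With encorafenib, the members moved upward: no member passed the test downward in any of the 6 line and day comparisons, and all 10 had a positive log2FC in each. At day 1, 8 members rose in NaJa-D, where 23.7% of all genes rose and 44.9% passed in either direction. In NaJa-F 8 rose (background 17.5% upward, 29.5% in either direction) and in NaJa-G 9 rose (35.3% and 64%). At day 5, 9 rose for NaJa-D (18.3% and 33%), 10 for NaJa-F (9.7% and 18.2%) and 10 for NaJa-G (28.5% and 53.2%). The median log2FC over the 10 members was 0.69, 0.62 and 1.34 on day 1 and 0.78, 0.62 and 1.14 at day 5 in the 3 lines, while the median over all genes lay between -0.017 and 0.044. In NaJa-D at day 1 the encorafenib libraries all lay above the DMSO libraries for 7 members, as they did for 28.8% of all genes. In each other comparison this held for all 10, where the share of all genes was 30% in NaJa-F and 40% in NaJa-G at day 1, and 29.8%, 28% and 37.7% at day 5 in the 3 lines. The members were chosen with earlier results of these data known, so these counts are descriptions and no independent tally.

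**Figure D2:**
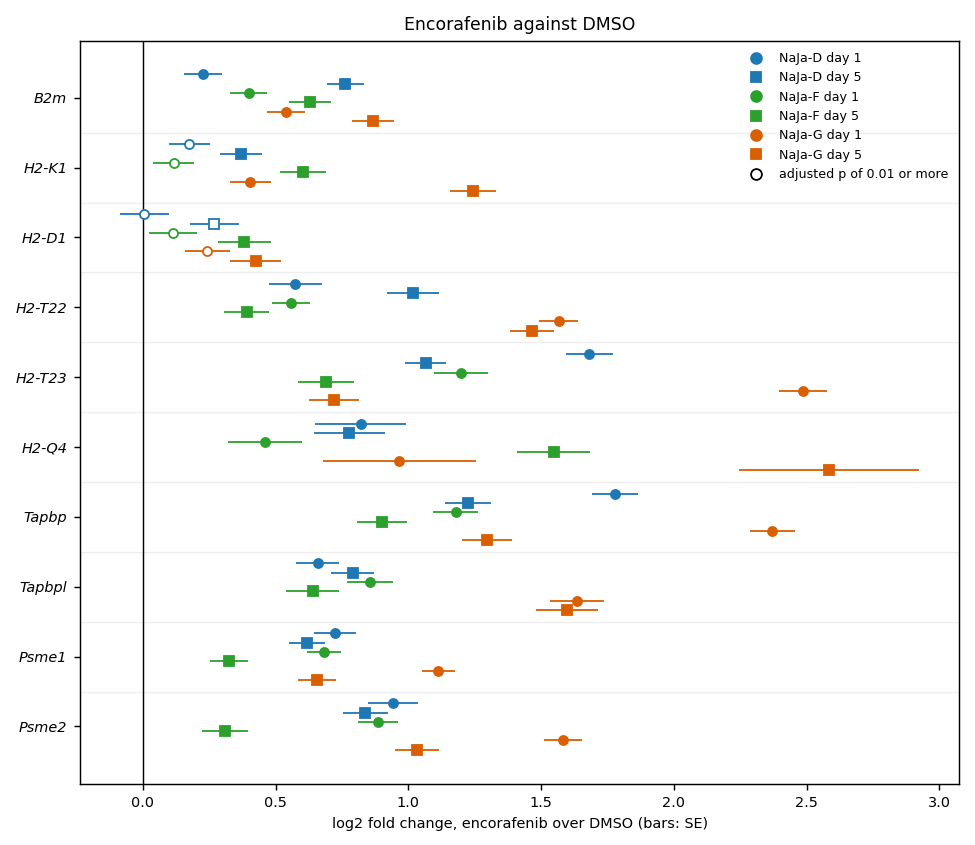
log2 fold changes with encorafenib against DMSO in the 3 lines at day 1 and day 5, with bars of 1 standard error and the threshold result marked. All values lie above 0, from 0.0052 for H2-D1 in NaJa-D at day 1 to 2.59 for H2-Q4 in NaJa-G at day 5.

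Tapbp rose the most of the members in NaJa-D at day 1 and rose in every comparison. It measured 87.7, 102 and 97.5 CPM with DMSO and 302, 305 and 379 CPM with encorafenib in NaJa-D at day 1, 88.7, 92.7 and 83.9 and 204, 207 and 189 CPM in NaJa-F, and 63.8, 55.0 and 52.0 and 295, 282 and 305 CPM in NaJa-G. Treated libraries lay above the controls in each line, and the gap was widest in NaJa-G, from 63.8 CPM in the highest control to 282 CPM in the lowest treated library. The log2FC was 1.78 ± 0.086, 1.18 ± 0.085 and 2.37 ± 0.086 (limma-voom adjusted p = 8.3e-16, 5.4e-12 and 1.3e-19). At day 5 it was 1.23 ± 0.086, 0.90 ± 0.094 and 1.30 ± 0.095 (adjusted p = 2.4e-12, 1.5e-08 and 1.7e-12).

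Tapbpl, the second editor, rose from 20.5, 23.6 and 23.2 to 32.8, 33.9 and 39.8 CPM in NaJa-D, from 10.8, 11.9 and 11.4 to 21.5, 21.4 and 19.1 CPM in NaJa-F and from 5.51, 6.01 and 5.66 to 17.3, 17.8 and 18.3 CPM in NaJa-G at day 1. The treated NaJa-G libraries still lay below every NaJa-D control of that day. The log2FC was 0.66 ± 0.08, 0.86 ± 0.087 and 1.64 ± 0.10 on day 1 and 0.79 ± 0.079, 0.64 ± 0.099 and 1.60 ± 0.12 at day 5 in the same order (largest limma-voom adjusted p = 1.1e-05).

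H2-T23 rose the most of the heavy chains at day 1. It measured 50.3, 48.8 and 47.8 CPM with encorafenib in NaJa-D, 18.9, 18.8 and 17.4 CPM in NaJa-F and 50.1, 50.3 and 52.2 CPM in NaJa-G, against the DMSO levels of 7.81 to 16.9 CPM over the 3 lines. Treated NaJa-D and NaJa-G libraries overlapped, and NaJa-F stayed lower. The log2FC was 1.68 ± 0.09, 1.20 ± 0.10 and 2.49 ± 0.091 (limma-voom adjusted p = 7e-15, 1.3e-10 and 1.6e-19). At day 5 it was 1.06 ± 0.077, 0.69 ± 0.10 and 0.72 ± 0.094 (adjusted p = 4e-12, 8.2e-06 and 1.5e-07).

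H2-T22 measured 13.0, 12.4 and 16.3 CPM with encorafenib in NaJa-D, 33.1, 34.1 and 33.6 CPM in NaJa-F and 48.5, 46.2 and 48.5 CPM in NaJa-G at day 1, and 16.4, 16.2 and 17.0, 28.0 and 26.7 and 44.8, 46.0 and 44.3 CPM at day 5. NaJa-G held the highest treated level on both days although NaJa-F was higher in DMSO. The log2FC was 0.58 ± 0.10, 0.56 ± 0.072 and 1.57 ± 0.073 on day 1 and 1.02 ± 0.096, 0.39 ± 0.083 and 1.47 ± 0.084 at day 5 in the 3 lines. All 6 passed the test. The NaJa-F call at day 5 (limma-voom adjusted p = 0.00065) was lost without NaJa-F encorafenib day 5 replicate 1 (0.34).

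H2-Q4 had the largest response of all at day 5 in NaJa-F and NaJa-G, from low levels. It measured 4.53, 4.87 and 5.23 CPM with encorafenib in NaJa-D, 7.19 and 6.98 CPM in NaJa-F and 1.28, 1.69 and 1.36 CPM in NaJa-G, against 2.70, 3.22 and 2.67, 2.48, 2.12 and 2.68 and 0.117 and 0.416 CPM with DMSO. Treated libraries lay above the controls in each line, and the NaJa-G controls at day 5 rested on 7 and 30 counts. The log2FC was 0.78 ± 0.13, 1.55 ± 0.14 and 2.59 ± 0.34 (limma-voom adjusted p = 2.4e-05, 8.6e-10 and 1.8e-07). The NaJa-G value was 1.76 without NaJa-G DMSO day 5 replicate 1 and 3.51 without NaJa-G DMSO day 5 replicate 3, and passed the test in both cases.

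At day 1 the H2-Q4 log2FC was 0.82 ± 0.17, 0.46 ± 0.14 and 0.97 ± 0.29 (limma-voom adjusted p = 0.00022, 0.0087 and 0.004) in the 3 lines. The NaJa-F call was lost without NaJa-F DMSO day 1 replicate 1 (0.44), NaJa-F DMSO day 1 replicate 2 (0.36), NaJa-F encorafenib day 1 replicate 1 (0.49), NaJa-F encorafenib day 1 replicate 2 (0.39) or NaJa-F encorafenib day 1 replicate 3 (0.50), and also with edgeR's quasi-likelihood test (0.46, adjusted p = 0.034), with limma-trend, with scaling by library size only, with a replicate block and with only the groups compared. The NaJa-G call was lost without NaJa-G DMSO day 1 replicate 1 (0.90), NaJa-G DMSO day 1 replicate 3 (0.88), NaJa-G encorafenib day 1 replicate 1 (0.95) or NaJa-G encorafenib day 1 replicate 2 (0.83), and with only the groups compared (limma-voom, 0.91, adjusted p = 0.013).

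The classical heavy chains had the smallest log2FC of the members at day 1. H2-K1 measured 356, 387 and 399 CPM with encorafenib in NaJa-D, 278, 286 and 274 CPM in NaJa-F and 53.8, 54.4 and 57.9 CPM in NaJa-G at day 1. In NaJa-D these overlapped with the controls. Of the lines, NaJa-G alone passed the test at day 1 (0.41 ± 0.076, limma-voom adjusted p = 2.7e-05), while NaJa-D had 0.17 ± 0.077 (adjusted p = 0.056, past the threshold at 0.25 with scaling by library size only) and NaJa-F 0.12 ± 0.077 (adjusted p = 0.24).

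At day 5 H2-K1 reached 528, 517 and 578 CPM with encorafenib in NaJa-D, 319 and 367 CPM in NaJa-F and 77.8, 91.9 and 80.2 CPM in NaJa-G. All 3 lines then passed, with log2FC 0.37 ± 0.079, 0.60 ± 0.086 and 1.24 ± 0.086 (limma-voom adjusted p = 0.00038, 3.2e-06 and 5.1e-13). The highest treated NaJa-G library, 91.9 CPM, was below every control library of NaJa-D and NaJa-F.

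H2-D1 had the smallest log2FC of the 10 members in each comparison except NaJa-F at day 5. At day 1 it was 0.0052 ± 0.092, 0.11 ± 0.09 and 0.24 ± 0.086 as log2FC, none past the threshold by limma-voom (adjusted p = 0.96, 0.32 and 0.013), and the NaJa-D value changed sign with other scalings, as with DESeq2 (-0.0077). The NaJa-G value passed without NaJa-G DMSO day 1 replicate 1 (0.31). At day 5 it measured 271 and 325 CPM with encorafenib in NaJa-F against 233, 226 and 225 CPM with DMSO, and 145, 166 and 144 against 103 and 123 CPM in NaJa-G. The log2FC was 0.27 ± 0.093 in NaJa-D (limma-voom adjusted p = 0.02, not passing, but past the threshold at 0.28 with scaling by library size only), 0.38 ± 0.099 in NaJa-F (0.0042) and 0.43 ± 0.096 in NaJa-G (0.00035). The NaJa-F call was lost without NaJa-F DMSO day 5 replicate 1 (0.38), NaJa-F DMSO day 5 replicate 2 (0.36), NaJa-F DMSO day 5 replicate 3 (0.36) or NaJa-F encorafenib day 5 replicate 2 (0.23), and the NaJa-G call without NaJa-G DMSO day 5 replicate 1 (0.29).

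B2m rose in all 6 comparisons. It measured 81.4, 90.7 and 98.7 CPM with encorafenib in NaJa-D, 111, 114 and 107 CPM in NaJa-F and 145, 133 and 147 CPM in NaJa-G at day 1, and 171, 178 and 184, 144 and 141 and 245, 260.1 and 260.2 CPM at day 5. Every treated group lay above its controls except NaJa-D at day 1, where the lowest treated library was within the controls. The log2FC at day 1 was 0.23 ± 0.07, 0.40 ± 0.07 and 0.54 ± 0.07 (limma-voom adjusted p = 0.0075, 3.5e-05 and 8e-08), and at day 5 0.76 ± 0.07, 0.63 ± 0.078 and 0.87 ± 0.08 (adjusted p = 5.7e-10, 3.1e-07 and 2.1e-10). The NaJa-D call at day 1 was lost without NaJa-D DMSO day 1 replicate 1 (0.11), NaJa-D DMSO day 1 replicate 3 (0.24), NaJa-D encorafenib day 1 replicate 2 (0.22) or NaJa-D encorafenib day 1 replicate 3 (0.13), the second being the library with the conflicting label, and with DESeq2 (0.21, adjusted p = 0.011), RLE scaling and only the groups compared.

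Psme1 and Psme2 rose in all 6 comparisons. Psme2 measured 18.5, 17.9 and 21.5 CPM with encorafenib in NaJa-D, 30.6, 32.4 and 30.6 CPM in NaJa-F and 51.3, 48.4 and 53.7 CPM in NaJa-G at day 1, all above their controls. The log2FC of Psme2 was 0.94 ± 0.094, 0.89 ± 0.074 and 1.58 ± 0.071 on day 1 and 0.84 ± 0.085, 0.31 ± 0.086 and 1.03 ± 0.082 at day 5 in the 3 lines. That of Psme1 was 0.72 ± 0.078, 0.68 ± 0.063 and 1.11 ± 0.063 on day 1 and 0.62 ± 0.068, 0.33 ± 0.071 and 0.65 ± 0.071 at day 5. In NaJa-F at day 5 the calls were weak (limma-voom adjusted p = 0.00087 for Psme1 and 0.0073 for Psme2). The Psme1 call was lost without NaJa-F encorafenib day 5 replicate 1 (0.32) or NaJa-F encorafenib day 5 replicate 2 (0.31), and the Psme2 call without NaJa-F DMSO day 5 replicate 1 (0.26), NaJa-F DMSO day 5 replicate 3 (0.27), NaJa-F encorafenib day 5 replicate 1 (0.22) or NaJa-F encorafenib day 5 replicate 2 (0.37) and with only the groups compared (0.31).

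**Figure D3:**
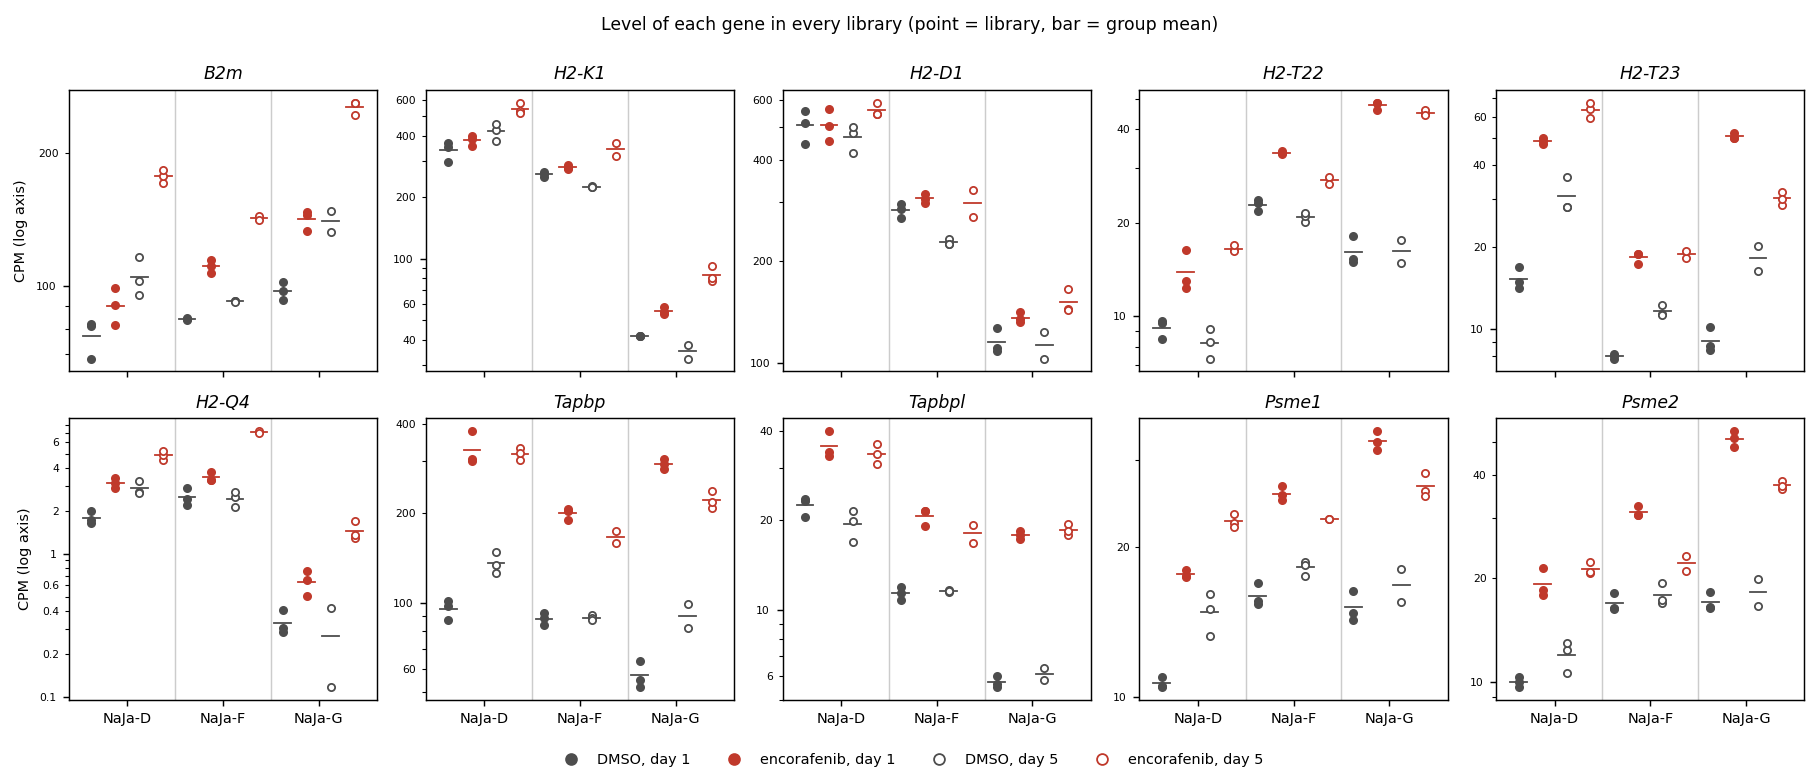
TMM-scaled CPM of each member in every library (log axis), by line, treatment and day. NaJa-G lies far below the other lines for H2-K1 and H2-Q4, and encorafenib libraries lie above DMSO libraries for Tapbp and H2-T23 in every line.

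The response was tested for differences between lines at the same day. These comparisons share libraries with each other and with those above. At day 1, 6 members rose more in NaJa-G than in NaJa-D, where 20.2% of all genes did, and 6 rose more in NaJa-G than in NaJa-F, where 19.2% did. They were H2-T22, H2-T23, Tapbp, Tapbpl, Psme1 and Psme2 in both. Against NaJa-D the difference of log2FC was 0.99 ± 0.12 for H2-T22, 0.98 ± 0.13 for Tapbpl, 0.80 ± 0.13 for H2-T23, 0.64 ± 0.12 for Psme2, 0.59 ± 0.12 for Tapbp and 0.39 ± 0.10 for Psme1. The Psme1 and Tapbp calls were lost when only the groups compared were fitted (0.32 and 0.52), and the Psme1 call also with scaling by library size only (0.26).

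Against NaJa-F at day 1 the difference was 1.29 ± 0.14 for H2-T23, 1.19 ± 0.12 for Tapbp, 1.01 ± 0.10 for H2-T22, 0.78 ± 0.13 for Tapbpl, 0.70 ± 0.10 for Psme2 and 0.43 ± 0.089 for Psme1. NaJa-F and NaJa-D differed in 1 member, Tapbp (-0.60 ± 0.12, limma-voom adjusted p = 0.001), which rose less in NaJa-F, with a background of 8.79% of all genes.

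At day 5 the members that differed were others in part. NaJa-G rose more than NaJa-D in 4 members (background 14.1% of all genes): H2-Q4 (1.81 ± 0.37), H2-K1 (0.87 ± 0.12), Tapbpl (0.81 ± 0.14) and H2-T22 (0.45 ± 0.13). H2-K1 and Tapbpl kept the call with every library left out. The H2-Q4 value fell to 0.98 and was no longer called without NaJa-G DMSO day 5 replicate 1, the library with 7 counts, and rose to 2.73 without replicate 3. The H2-T22 call was lost without NaJa-D DMSO day 5 replicate 2 (0.38), NaJa-D DMSO day 5 replicate 3 (0.43), NaJa-D encorafenib day 5 replicate 1 (0.44), NaJa-D encorafenib day 5 replicate 2 (0.43), NaJa-D encorafenib day 5 replicate 3 (0.47), NaJa-G DMSO day 5 replicate 1 (0.33), NaJa-G encorafenib day 5 replicate 1 (0.45), NaJa-G encorafenib day 5 replicate 2 (0.43) or NaJa-G encorafenib day 5 replicate 3 (0.46), and with RLE scaling (0.46) or only the groups compared (0.49).

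NaJa-G rose more than NaJa-F in 4 members at day 5 (background 16.2% of all genes): H2-T22 (1.08 ± 0.12), Tapbpl (0.96 ± 0.15), Psme2 (0.72 ± 0.12) and H2-K1 (0.64 ± 0.12). None of these calls was lost with a library left out. NaJa-F differed from NaJa-D in 3 members (background 8.85% of all genes in either direction), with H2-Q4 rising more (0.77 ± 0.19) and H2-T22 (-0.63 ± 0.13) and Psme2 (-0.53 ± 0.12) less. The H2-Q4 call was lost without NaJa-D DMSO day 5 replicate 1 (0.81), NaJa-D DMSO day 5 replicate 2 (0.69), NaJa-D encorafenib day 5 replicate 1 (0.72), NaJa-D encorafenib day 5 replicate 2 (0.77), NaJa-F DMSO day 5 replicate 1 (0.79), NaJa-F DMSO day 5 replicate 2 (0.67), NaJa-F encorafenib day 5 replicate 1 (0.75) or NaJa-F encorafenib day 5 replicate 2 (0.78), and with edgeR (0.77, adjusted p = 0.038) or limma-trend. The Psme2 call was lost without NaJa-D DMSO day 5 replicate 1 (-0.44), NaJa-F DMSO day 5 replicate 2 (-0.47) or NaJa-F encorafenib day 5 replicate 2 (-0.46) and with only the groups compared (-0.50).

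The response also changed with time, and in opposite directions for different members. In NaJa-G, 6 members differed between day 5 and day 1 (background 31.7% of all genes in either direction). The H2-K1 response grew by 0.84 ± 0.11 and that of H2-Q4 by 1.62 ± 0.45, while the responses of H2-T23 (-1.77 ± 0.13), Tapbp (-1.08 ± 0.13), Psme2 (-0.55 ± 0.11) and Psme1 (-0.46 ± 0.095) shrank, all as differences of log2FC. The H2-Q4 difference was 0.80 and no longer called without NaJa-G DMSO day 5 replicate 1, 1.47 and not called without NaJa-G DMSO day 1 replicate 2, and 2.55 without NaJa-G DMSO day 5 replicate 3; the call was also lost with only the groups compared (1.61). The Psme1 call was lost without NaJa-G DMSO day 5 replicate 3 (-0.34).

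In NaJa-D, 3 members differed between the days (background 7.29% of all genes in either direction): the B2m response grew (0.54 ± 0.099), and those of H2-T23 (-0.62 ± 0.12) and Tapbp (-0.55 ± 0.12) shrank. All 3 calls were lost when only the groups compared were fitted (0.56, -0.59 and -0.53), and the Tapbp call without NaJa-D DMSO day 1 replicate 1 (-0.48), NaJa-D DMSO day 1 replicate 3 (-0.56) or NaJa-D encorafenib day 5 replicate 2 (-0.52), the second being the library with the conflicting label.

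In NaJa-F, 3 members differed (background 5.88% of all genes in either direction): the responses of H2-Q4 (1.09 ± 0.20) and H2-K1 (0.49 ± 0.12) grew, and that of Psme2 (-0.58 ± 0.11) shrank. The H2-K1 call was lost without NaJa-F DMSO day 1 replicate 2 (0.48), NaJa-F DMSO day 1 replicate 3 (0.46), NaJa-F DMSO day 5 replicate 1 (0.48), NaJa-F DMSO day 5 replicate 2 (0.48), NaJa-F DMSO day 5 replicate 3 (0.48), NaJa-F encorafenib day 1 replicate 1 (0.48), NaJa-F encorafenib day 1 replicate 3 (0.47) or NaJa-F encorafenib day 5 replicate 2 (0.37), the Psme2 call without NaJa-F encorafenib day 5 replicate 2 (-0.51), and the H2-Q4 call with limma-trend (1.07, adjusted p = 0.037).

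**Figure D4:**
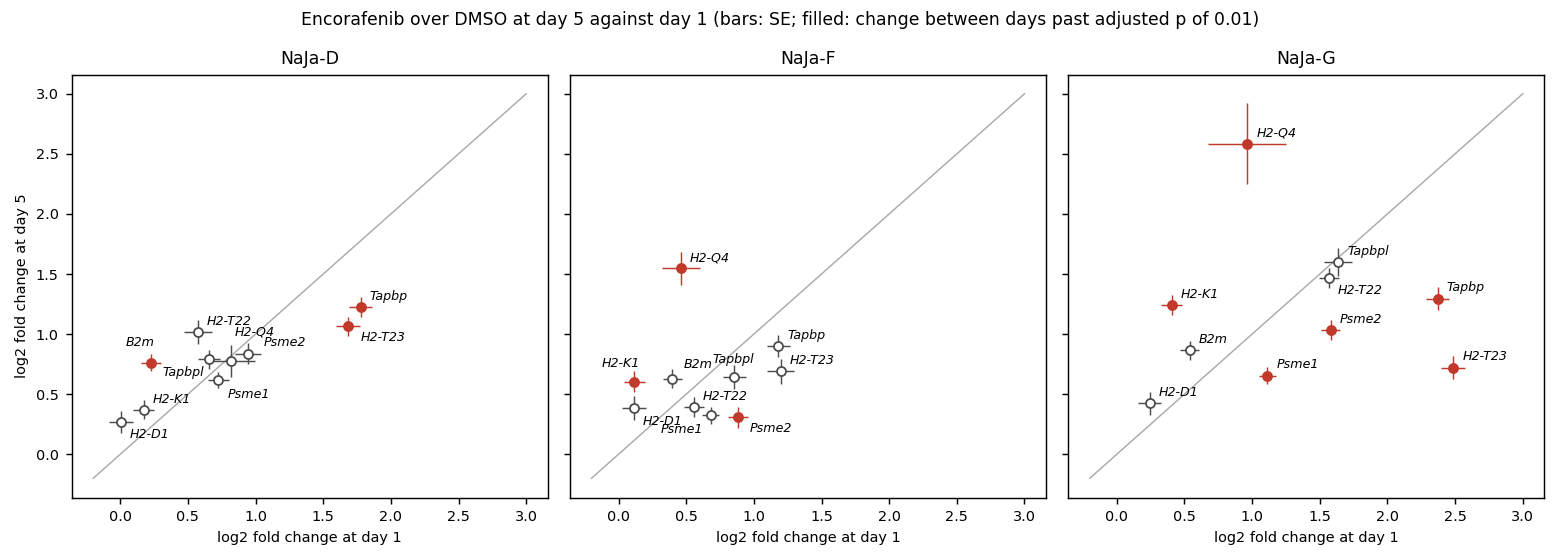
log2 fold change with encorafenib at day 5 against that at day 1, one point per member and line, with the line of equal response. H2-K1 and H2-Q4 lie above the line in NaJa-F and NaJa-G, and H2-T23 and Tapbp lie below it in all 3 lines.

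Members also changed with time in the DMSO cultures. In NaJa-D 6 members rose from day 1 to day 5 in DMSO (background 13.7% of all genes upward): H2-T23 (0.99 ± 0.093), H2-Q4 (0.67 ± 0.18), Tapbp (0.51 ± 0.084), Psme1 (0.46 ± 0.081), B2m (0.44 ± 0.07) and H2-K1 (0.31 ± 0.077). The H2-K1 call was lost without NaJa-D DMSO day 1 replicate 1 (0.21) or NaJa-D DMSO day 5 replicate 2 (0.25) and with only the groups compared (0.31). The H2-Q4 call was lost without NaJa-D DMSO day 1 replicate 1 (0.59), NaJa-D DMSO day 1 replicate 3 (0.64) or NaJa-D DMSO day 5 replicate 2 (0.60), the second again the library with the conflicting label, and with limma-trend.

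In NaJa-G 3 rose in DMSO (background 17.2% of all genes upward): H2-T23 (1.01 ± 0.11), from 10.2, 8.38 and 8.68 to 16.4 and 20.2 CPM, Tapbp (0.67 ± 0.094), from 63.8, 55.0 and 52.0 to 82.1 and 99.0 CPM, and B2m (0.52 ± 0.078). For H2-T23 and Tapbp, whose response shrank, the day 5 controls thus lay above the day 1 controls without overlap. In NaJa-F H2-T23 rose (0.55 ± 0.11) and H2-D1 fell (-0.32 ± 0.089), with a background of 16.7% of all genes in either direction. The H2-D1 call was lost without any one of 6 libraries, each of the NaJa-F DMSO libraries of day 1 and day 5 in turn, with values from -0.35 to -0.29, and with RLE scaling or library size only (-0.33 and -0.24).

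In encorafenib, NaJa-D rose from day 1 to day 5 in 5 members (background 12.5% of all genes upward): B2m (0.98 ± 0.07), H2-Q4 (0.63 ± 0.13, not called with limma-trend), H2-K1 (0.51 ± 0.079), H2-T23 (0.38 ± 0.073) and Psme1 (0.36 ± 0.065). NaJa-G changed in 7 (background 41% of all genes in either direction), with H2-Q4 (1.14 ± 0.22), B2m (0.85 ± 0.072) and H2-K1 (0.59 ± 0.074) rising and H2-T23 (-0.76 ± 0.076), Psme2 (-0.45 ± 0.066), Tapbp (-0.41 ± 0.087) and Psme1 (-0.31 ± 0.058) falling. For H2-T23 in NaJa-G the treated libraries went from 50.1, 50.3 and 52.2 CPM at day 1 to 28.5, 31.9 and 30.0 CPM at day 5.

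NaJa-F changed in 4 members in encorafenib (background 22.5% of all genes in either direction), H2-Q4 (1.05 ± 0.13) and B2m (0.36 ± 0.078) rising and Psme2 (-0.49 ± 0.081) and H2-T22 (-0.30 ± 0.08) falling. The B2m call was lost without NaJa-F encorafenib day 5 replicate 1 (0.32) or NaJa-F encorafenib day 5 replicate 2 (0.35). The H2-T22 call was lost without NaJa-F encorafenib day 1 replicate 1 (-0.31), NaJa-F encorafenib day 1 replicate 2 (-0.29), NaJa-F encorafenib day 1 replicate 3 (-0.30), NaJa-F encorafenib day 5 replicate 1 (-0.36) or NaJa-F encorafenib day 5 replicate 2 (-0.29), and with edgeR (-0.30, adjusted p = 0.014), DESeq2 (-0.30, adjusted p = 0.012), limma-trend and scaling by library size only (-0.19).

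Compared per length of exon, as CPM per kilobase, H2-D1 was the most abundant heavy chain in each group but NaJa-F with encorafenib at day 5, where H2-K1 stood at 117 and H2-D1 at 116 CPM per kb, and class Ia chains made up most of the heavy chain transcripts. In NaJa-D with DMSO at day 1 H2-D1 stood at 196, H2-K1 at 115 and B2m at 89.8 CPM per kb. In NaJa-G the same values were 44.7, 14.2 and 113 CPM per kb. With DMSO at day 1 the light chain was thus below the classical chain H2-K1 in NaJa-D and far above it in NaJa-G. The ratio of B2m to H2-K1 was 0.781 ± 0.0143 (SD, n = 3) in NaJa-D, 1.11 ± 0.0260 (n = 3) in NaJa-F and 7.98 ± 0.409 (n = 3) in NaJa-G. At day 5 in DMSO the NaJa-G ratio was 13.6 ± 0.492 (n = 2), and in encorafenib 10.5 ± 0.742 (n = 3). In NaJa-D it was 0.856 ± 0.0833 (n = 3) in DMSO and 1.12 ± 0.0477 (n = 3) in encorafenib at day 5. The lengths merge all annotated exons of a gene, so the order of genes within a group depends on the annotation. These ratios are descriptions and were not tested.

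The 5 heavy chains summed to 320.3 ± 35.1 CPM per kb (SD, n = 3) for NaJa-D, 208 ± 4.74 for NaJa-F and 66.9 ± 4.68 for NaJa-G with DMSO at day 1. With encorafenib at day 5 the sums were 430.3 ± 21.9 (n = 3), 249.6 ± 26.5 (n = 2) and 111 ± 8.27 (n = 3) CPM per kb. The treated NaJa-G sum therefore stayed below the control sums of both other lines. Of the NaJa-G sum, H2-K1 and H2-D1 made up 88.1% with DMSO and 69.2% with encorafenib at day 1, and H2-T22 with H2-T23 11.7% and 30.5%. In NaJa-D the classical pair went from 97.3% to 93.6% at the same day. Because H2-T22 shares 53.5% of its stretches with other genes, its part of the sum is uncertain.

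**Figure D5:**
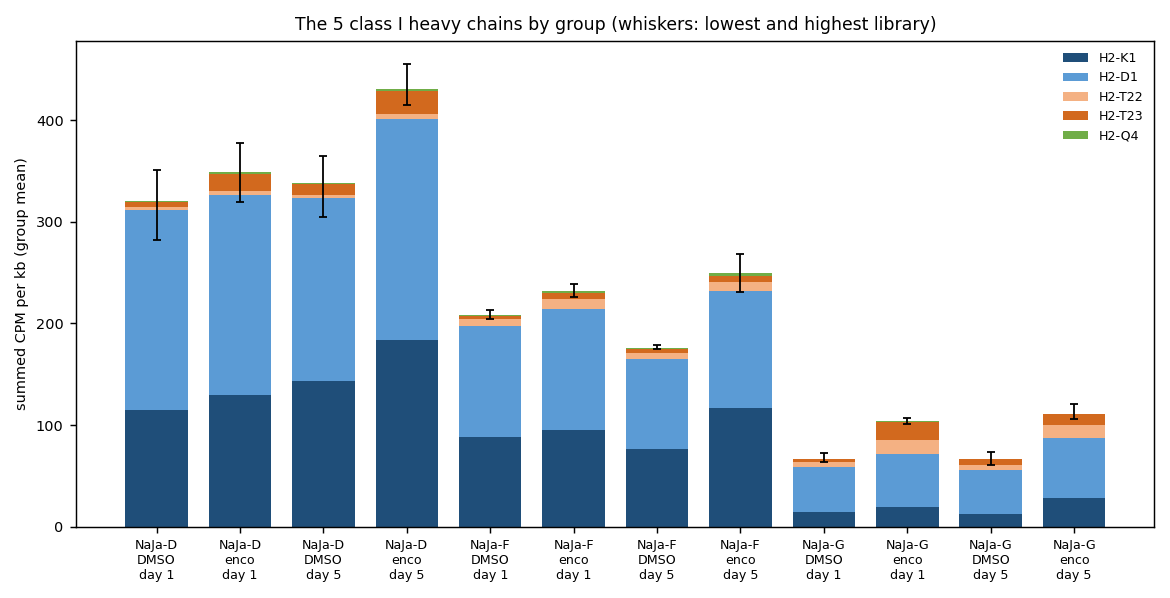
Stacked mean CPM per kb of exon of the 5 heavy chains in each of the 12 groups. H2-K1 and H2-D1 fill most of each bar, and the T region chains take up 30.5% of the bar of NaJa-G with encorafenib at day 1.

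The counts of the 10 rows with symbols starting with H2- were also added before taking the ratio, leaving out the listed class II genes. Membership in class I was not checked for each of these rows. Such a sum is less exposed to how shared reads were split among them. Its log2 ratio of encorafenib to DMSO was 0.14, 0.15 and 0.67 at day 1 in the 3 lines, and 0.36, 0.50 and 0.77 at day 5. This log2 ratio was thus above 0 in all 6 comparisons, and is given without a test. In NaJa-D at day 1 the sums overlapped, with 780 to 966 CPM in the DMSO libraries and 890 to 1045 CPM in the encorafenib libraries. H2-K1 and H2-D1, which did not pass the test there, made up 95.6% of that sum with DMSO.

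The ratio of Psme2 to Psme1, per kb, was 1.17 ± 0.0226 (SD, n = 3) in NaJa-D, 1.33 ± 0.129 (n = 3) in NaJa-F and 1.41 ± 0.0286 (n = 3) in NaJa-G with DMSO at day 1, and 1.37 ± 0.110, 1.52 ± 0.0197 and 1.95 ± 0.0931 with encorafenib. The activator's β subunit, from Psme2, thus lay above its α subunit per length in each of these groups. This order depends on the lengths, which merge all annotated exons of a gene. In CPM without the length, NaJa-D with DMSO at day 1 had 10.7 for Psme1 and 9.98 for Psme2. With DMSO at day 5 the NaJa-D ratio was 1.02 ± 0.0622 (n = 3), with 0.960 in the lowest library. Psme2 also shares 28.3% of its stretches with other genes. Over the 12 group means of log2 CPM, the members fell into patterns: Pearson's r was 0.96 for H2-K1 with H2-D1, 0.96 for Psme1 with Psme2, 0.93 for H2-K1 with H2-Q4, 0.93 for H2-T22 with Psme2 and 0.90 for Tapbp with H2-T23, but -0.27 for B2m with H2-K1. The 12 points share lines and libraries, so these are descriptions. Across groups H2-Q4 ranged 26.6-fold between the lowest and highest mean, H2-K1 15.4-fold, H2-T23 7.97-fold, Tapbpl 6.20-fold, H2-T22 5.79-fold, Tapbp 5.77-fold, Psme2 5.12-fold, H2-D1 4.96-fold, B2m 3.30-fold and Psme1 3.08-fold. The H2-Q4 range was 60.5-fold without NaJa-G DMSO day 5 replicate 3 and 21.6-fold without NaJa-G DMSO day 5 replicate 1, a check added after seeing the data.

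Outside the members, the genes whose group means followed the mean standardised level of the 10 members most closely were 1110032A03Rik (r = 0.98), Arhgef5 (0.98), Gab1 (0.97), Neurl1a (0.97) and Creb3 (0.97), out of 10267 genes of sufficient level and over 12 group means. These were picked for their likeness out of all those genes, and nothing further is drawn from them.

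Other genes of the pathway were read from lists, to be set against the shares of all genes given above. Of 8 genes of peptide transport, trimming and loading, 1 rose and 5 fell in NaJa-D, 1 rose and 0 fell in NaJa-F and 4 rose and 2 fell in NaJa-G at day 1, with list medians of -0.34, -0.06 and 0.21 (log2FC). At day 5 it was 2 up and 2 down, 2 up and 0 down, and 3 up and 0 down, with medians of -0.09, 0.08 and 0.14.

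Tap2, a subunit of the peptide transporter, rose by 1.34 in NaJa-D and 1.65 in NaJa-G at day 1, and by 1.29, 1.33 and 3.01 at day 5 in the 3 lines (log2FC). The last was 1.39 without NaJa-G DMSO day 5 replicate 1 and 4.82 without replicate 3, and was not called with only the groups compared. Tap2 levels were low, with group means from 0.0848 to 2.04 CPM and 0.140 CPM in NaJa-G with DMSO at day 5. The Tap2 calls of day 1 were lost without NaJa-D DMSO day 1 replicate 1 (1.21), and without NaJa-G DMSO day 1 replicate 2 (1.36), NaJa-G DMSO day 1 replicate 3 (1.68) or NaJa-G encorafenib day 1 replicate 2 (1.55). The NaJa-F call at day 5 was lost without NaJa-F DMSO day 5 replicate 1 (1.06) or NaJa-F encorafenib day 5 replicate 1 (1.18). Erap1, which trims peptides, rose in NaJa-F and NaJa-G at day 1 (0.44 and 0.42) and in all lines at day 5 (0.33, 0.36 and 0.58). The Erap1 calls of day 5 were lost without NaJa-D DMSO day 5 replicate 3 (0.26), and without NaJa-F DMSO day 5 replicate 1 (0.34) or NaJa-F encorafenib day 5 replicate 1 (0.25). Canx, the chaperone calnexin, fell at day 1 in NaJa-D (-0.59) and NaJa-G (-0.38).

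Of the inducible proteasome and activator list, 4 genes were in the table, and 1, 0 and 0 rose on day 1 and 0, 0 and 1 on day 5 in the 3 lines, with medians from -0.13 to 0.11. Psmb10, an inducible catalytic subunit, rose by 0.59 in NaJa-G at day 5, with 0.32 and no call without NaJa-G DMSO day 5 replicate 1 and 0.91 without replicate 3. Psme3, the PA28γ activator of the nucleus, fell in NaJa-G at day 1 (-0.38), where Psme1 and Psme2 rose. Of the 14 constitutive 20S subunits, 0 rose and 5 fell for NaJa-D, 0 and 0 for NaJa-F, and 1 rose and 3 fell in NaJa-G at day 1. At day 5, 0 rose in any line, and 0, 1 and 8 fell. Psma5, an α ring subunit, had the largest fall in NaJa-D at day 1 (-0.31, not called with only the groups compared) and in NaJa-G on both days (-0.33 and -0.49). Tap1, Psmb8 and Psmb9 were not analysed here.

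Of 8 other class I or class I-like heavy chain genes, 1, 3 and 6 rose and 1, 1 and 1 fell at day 1 in the 3 lines, and 2, 0 and 4 rose and 0, 1 and 1 fell at day 5. The list median lay between 0.23 in NaJa-D and 1.25 in NaJa-G, both at day 1. H2-Q1 rose by 2.93 in NaJa-G at day 1 and was the gene that fell there at day 5 (-1.17). Its levels were low: the NaJa-G group means were 0.102 CPM with DMSO and 0.730 CPM with encorafenib at day 1. At day 5 they were 1.19 and 0.523 CPM. Fcgrt, the neonatal Fc receptor heavy chain, which also pairs with B2m, rose in NaJa-F at day 1 (2.02) and in NaJa-G on both days (2.67 and 1.98). Mr1, which presents vitamin B metabolites, rose by 3.49 in NaJa-G at day 5, from a low level: the group means were 0.133 CPM with DMSO and 1.58 CPM with encorafenib. Cd1d1, which presents lipids, rose at day 5 in NaJa-D (1.22) and NaJa-G (1.99), with group means of at most 2.09 CPM. Its day 1 call in NaJa-D (0.90) was lost without NaJa-D DMSO day 1 replicate 1 (0.42), NaJa-D DMSO day 1 replicate 3 (1.04), NaJa-D encorafenib day 1 replicate 1 (0.82), NaJa-D encorafenib day 1 replicate 2 (0.92) or NaJa-D encorafenib day 1 replicate 3 (0.93). Procr, a class I-like receptor of protein C that does not pair with B2m, fell in NaJa-D at day 1 (-1.47) and in NaJa-F on both days (-0.72 and -0.53). In NaJa-D at day 1 its group means were only 0.778 CPM with DMSO and 0.277 CPM with encorafenib, against 76.4 CPM with DMSO in NaJa-F.

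Of 30 known or candidate regulators of class I genes, 12, 10 and 15 rose and 4, 4 and 7 fell at day 1, and 9, 6 and 10 rose and 6, 2 and 10 fell at day 5 in the 3 lines, with medians from 0.10 to 0.30. Irf7, an interferon-induced activator, rose by 1.90, 1.03 and 1.73 on day 1 and by 1.39, 0.85 and 3.10 at day 5. The last was 2.02 without NaJa-G DMSO day 5 replicate 1 and 4.31 without replicate 3, and the NaJa-F call of day 5 was lost without NaJa-F DMSO day 5 replicate 1 (0.81), NaJa-F DMSO day 5 replicate 2 (0.74), NaJa-F DMSO day 5 replicate 3 (0.95) or NaJa-F encorafenib day 5 replicate 2 (0.65), and with edgeR, limma-trend and only the groups compared. Irf8, another interferon regulatory factor, was lower in all 6 comparisons, at -2.97, -2.29 and -4.18 on day 1 and -2.68, -1.71 and -2.75 at day 5. The Irf8 call in NaJa-F at day 5 was lost without NaJa-F encorafenib day 5 replicate 1 (-1.48). Both genes had low levels, with group means between 0.135 and 2.47 CPM for Irf8 and between 0.313 and 4.72 CPM for Irf7.

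Relb, an NF-κB subunit, rose in all 6 comparisons, with 1.07 in NaJa-D on day 1 and 1.19, 0.77 and 1.23 at day 5. Nlrc5 was not analysed here. Of the MHC class II list only H2-DMa was in the table, and it did not pass the test in any of the 6 comparisons (log2FC from -0.22 to 0.37).

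Cell type markers were read beside these results. All 9 intestinal epithelial markers were present, with summed levels from 2611 to 9106 CPM per library. With encorafenib 4, 3 and 4 of them rose and 3, 2 and 3 fell at day 1, and 3, 1 and 2 rose and 4, 3 and 4 fell at day 5. Cdh17, an intestinal cadherin, fell in every comparison (from -1.98 to -4.94). Others went the other way: Krt19, a keratin, rose at day 1 by 1.01, 0.83 and 1.44 in the 3 lines. Vil1 rose in NaJa-D at day 1 (0.68) and fell there at day 5 (-2.10). The list thus did not move in 1 direction.

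Of 14 leukocyte markers 12, Ptprc among them, were not analysed here, and the other two, Csf1r and Cd68, summed to 3.64 to 10.2 CPM per library. Csf1r rose in all 6 comparisons, by 1.92 to 3.01, and its group means lay between 0.161 and 4.11 CPM. Of 4 mesothelial markers, 3 were in the table, and Wt1 was not analysed here. At day 1 their summed level ranged from 1236 to 1514 CPM with DMSO and from 2604 to 3520 CPM with encorafenib in NaJa-D. In NaJa-F the ranges were 743 to 985 and 1104 to 1176 CPM, and in NaJa-G 558 to 724 and 1328 to 1523 CPM. Almost all of each sum was Msln, a surface protein of mesothelium. The group means of the other markers in the table were at most 6.18 CPM for Upk3b and 3.51 CPM for Lrrn4. These sums therefore describe Msln and not the list as a whole. Msln rose in all 6 comparisons, from 0.48 in NaJa-F at day 1 to 1.61 in NaJa-G at day 5. The NaJa-F calls of Msln were lost without NaJa-F DMSO day 1 replicate 1 (0.42) or NaJa-F DMSO day 1 replicate 2 (0.40) at day 1 and without NaJa-F DMSO day 5 replicate 1 (0.51), NaJa-F encorafenib day 5 replicate 1 (0.52) or NaJa-F encorafenib day 5 replicate 2 (0.56) at day 5. The part of these markers in the responses of the class I genes was not tested.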

How the data were processed

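Gene-level read counts of 34 RNA sequencing libraries were deposited by the authors as whole numbers in 1 table of 14107 genes. Per the submitters' processing notes, reads were trimmed with Trimmomatic 0.39 and aligned with STAR 2.5.2b, and the build was GRCm38 (mm10). The counter, its annotation and its use of strand are not given in the sources used here. Symbols, coordinates and exon lengths were taken from GENCODE M21 (14064 of 14107 identifiers matched, 43 did not), and promoters from RefSeq. Groups were read from the sample titles. Totals ran from 46007050 to 80121299 counts, and TMM factors from 0.876 to 1.07. Between replicates, 32 pairs differed by 3.32 to 86.6 times what counting noise gives, so none was counted as a duplicate.

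All deposited genes were fitted with limma-voom (R 4.3.3, limma 3.58.1, edgeR 4.0.16) with 1 mean for each of the 12 groups and TMM scaling. 24 comparisons were tested, two-sided, with a threshold of 0.01 on p adjusted by Benjamini-Hochberg across the table. The script was tested on simulated data. Alternatives were a threshold of 0.05, a minimum change of 1 on the log2 scale, limma-trend (prior count 3), RLE scaling, library size only, filterByExpr, a replicate block, only the groups compared, edgeR's quasi-likelihood test, DESeq2 1.42.0, single days for line differences, and omission of every library, one by one. Where this left a group with 1 library, that library is assumed to vary like the others. The deviations of same-numbered libraries had correlations of both signs (16 values from -0.436 to 0.487). The highest were 0.352 and 0.487, for replicates 1 and 2 of NaJa-G at day 1. Deviations from means of 2 or 3 libraries cannot show whether the numbers are pairs. The numbers were not taken as pairs in the main fit.

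All 10 members are named. From the other lists, counts are given, and by name genes among the 4 largest called changes of a list in a comparison, with the 5 genes of most like pattern over group means. Members, lists and tests were chosen with earlier results of these data known.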

Additional observations from a re-analysis of the deposited data

Results flagged for a closer look

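The test of the difference itself singled out results whose encorafenib response differed between lines or between days (limma-voom, adjusted p below 0.01 over all genes). Values are differences of log2 fold changes. At day 1, NaJa-F minus NaJa-D gave -0.60 for Tapbp. At day 1, NaJa-G minus NaJa-D gave 0.99 for H2-T22, 0.80 for H2-T23, 0.59 for Tapbp, 0.98 for Tapbpl, 0.39 for Psme1 and 0.64 for Psme2. At day 1, NaJa-G minus NaJa-F gave 1.01 for H2-T22, 1.29 for H2-T23, 1.19 for Tapbp, 0.78 for Tapbpl, 0.43 for Psme1 and 0.70 for Psme2. At day 5, NaJa-F minus NaJa-D gave -0.63 for H2-T22, 0.77 for H2-Q4 and -0.53 for Psme2. At day 5, NaJa-G minus NaJa-D gave 0.87 for H2-K1, 0.45 for H2-T22, 1.81 for H2-Q4 and 0.81 for Tapbpl. At day 5, NaJa-G minus NaJa-F gave 0.64 for H2-K1, 1.08 for H2-T22, 0.96 for Tapbpl and 0.72 for Psme2. Day 5 minus day 1 in NaJa-D gave 0.54 for B2m, -0.62 for H2-T23 and -0.55 for Tapbp. Day 5 minus day 1 in NaJa-F gave 0.49 for H2-K1, 1.09 for H2-Q4 and -0.58 for Psme2. Day 5 minus day 1 in NaJa-G gave 0.84 for H2-K1, -1.77 for H2-T23, 1.62 for H2-Q4, -1.08 for Tapbp, -0.46 for Psme1 and -0.55 for Psme2. The differences between lines share libraries with each other and with those between days. Calls that were lost without a library are named beside each result above.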

How the results depend on the processing

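All 24 counts of members called were recomputed under each alternative. filterByExpr kept all 14107 genes and changed nothing. Over the settings that left no library out, 1441 of 1590 values of single members kept their direction and side of the threshold. Of the others, 138 no longer passed, 4 newly passed and 7 changed sign. Of the 138, 102 came from the minimum log2 fold change of 1. The values kept include 153 with filterByExpr, which could not differ, and 151 with the threshold of 0.05, which could lose no call. For the 121 named list results the number kept was 1118 of 1210, with 92 no longer passing and 0 changing sign. Both totals pool such settings, so neither share measures how far the results depend on processing. Library size only moved the median log2 fold change of all genes by over 0.1 in some comparisons, as in NaJa-F against NaJa-D in DMSO (0.14).

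A minimum log2 fold change of 1 in either direction cut the encorafenib counts to 2 in NaJa-D and 2 in NaJa-F at day 1, and 3, 1 and 6 at day 5 in the 3 lines, listed as D, F, G. Over all 14107 genes this minimum left 1103 and 691 calls at day 1, and 778, 579 and 2263 at day 5. Among the members it gave 0, 0 and 3 for the response differences F minus D, G minus D and G minus F at day 1, and 0, 1 and 1 at day 5. It gave 0, 1 and 3 for day 5 minus day 1 in the 3 lines, 2, 4 and 3 for the line differences, 0, 0 and 1 for time in DMSO and 0, 1 and 1 for time in encorafenib. For the line differences the calls over all genes were 1773, 2872 and 2089. For the other counts of this paragraph, and for those without single libraries below, the number over all genes is not given. They describe the settings and are not read as results about the members. Only counts of members that moved by more than a set factor are listed here. An adjusted p below 0.05 gave 2 (F minus D, day 1), 5 (F minus D, day 5), 7 (G minus F, day 5) and 5 (day 5 minus day 1, NaJa-F). For F minus D at day 1, limma-trend, library size only, edgeR and DESeq2 gave 2 each. RLE scaling gave 1 for time in DMSO in NaJa-F, and library size only 8 for time in encorafenib in NaJa-D. Fitting only the groups compared gave 0 and 5 for day 5 minus day 1 in NaJa-D and NaJa-F, and 4 for time in DMSO in NaJa-F. The cause was not tested.

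Leaving out each library gave 1 to 2 members for F minus D at day 1, 1 to 3 at day 5, 4 to 7 for G minus F at day 5, 1 to 3 for day 5 minus day 1 in NaJa-F, 1 to 1 for time in DMSO in NaJa-F and 2 to 3 for time in encorafenib in NaJa-F.

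Some uncalled or small values changed sign. H2-D1 in NaJa-D at day 1 was -0.0069 with RLE scaling, -0.018 with only the groups compared, -0.0077 with DESeq2, and -0.11 to 0.081 without single libraries. B2m in NaJa-F against NaJa-D was 0.10 with library size only, 0.13 at day 1 alone, and -0.073 to 0.014 without single libraries. H2-Q4 in NaJa-F against NaJa-D was -0.23 at day 5 alone. Psme2 in NaJa-G against NaJa-F was -0.044 to 0.085 without single libraries. Tapbp in NaJa-G against NaJa-F, which had passed, was 0.018 at day 5 alone.

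With the replicate number as a block, the count was 7 in NaJa-F at day 1 (H2-Q4 was lost, at 0.47), 7 for G minus D at day 1 and 5 for time in encorafenib in NaJa-F, and no other count changed. Over all 14107 genes the block left 4132 calls for encorafenib in NaJa-F at day 1. For the other counts with the block the number over all genes is not given. Whether the numbers pair the samples is not known.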
